A study of Mus musculus with 8 samples.

Results

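Control carcinoma was compared with control papilloma by the rank of each gene within its own array. The 4 arrays, of 8 in the series, were the 2 control papilloma arrays and the 2 control carcinoma arrays, chosen by their titles. All 4 held RNA from mouse skin tumour cells sorted for the epithelial surface protein Epcam. All 4 carry the genotype label NR2F2 WT, that is, wild type for the orphan nuclear receptor NR2F2 (COUP-TFII). The control carcinomas lacked Cre and served as controls for K5CreER;NR2F2fl/fl squamous cell carcinomas (KO), in which keratin 5 promoter-driven CreER can delete both floxed alleles. The control papillomas served as controls for papillomas that overexpressed NR2F2 (GOF). How the tumours were induced, the age of the mice, what drives the overexpression and whether samples were pooled are not given in the sources used here. Nothing in the labels says that both arrays of a group were made from different mice. The p-values thus reflect array-to-array spread alone, which may be technical.

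Papilloma is a benign outgrowth of the epidermis, and squamous cell carcinoma is the invasive tumour that can arise from it. In normal epidermis, basal cells express keratins 5 and 14 and anchor to the basement membrane through integrins and laminin. As cells move outward they switch to keratins 1 and 10, then build the cornified envelope and the lipid barrier. Simple epithelia, such as those of ducts and gut, express keratins 8, 18 and 19, which interfollicular epidermis hardly makes.

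The deposited log2 values of the 2 tumour types lie on different scales, with array medians of 3.13 and 3.16 for control papilloma and of 5.10 and 5.15 for control carcinoma. Each value was therefore replaced by its percentile rank among the 45037 mouse probe sets of its array. A rank of 0 is the dimmest probe set and 100 the brightest, and no log2 level was compared. A difference is given in percentile points, carcinoma minus papilloma, with the standard error (SE) of the fit. Tumour type and array batch coincide, so the 2 cannot be told apart in any value below, and no batch holds arrays of both tumour types. Array background was the highest rank among 44 control probe sets for non-mouse sequences. It lay at 51.3 and 46.7 in control papilloma and at 48.2 and 46.4 in control carcinoma. Ranks below it have no order, so where both arrays of a tumour type lie there, a difference is given only as a lower bound ("at least"). Tests and list medians used the ranks as measured, also below background.

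Rank correlation over all probe sets was 0.921 between the control papillomas, 0.976 between the control carcinomas and 0.864 to 0.870 across tumour types. Bacterial and phage transcripts are spiked into every array. Whether their amounts were equal across the tumour types was not tested. The dimmest, bioB, had a mean rank of 94.9 and 94.1 on the papilloma arrays and of 86.8 and 84.8 on the carcinoma arrays, a difference of -8.7 points. The brighter bioC differed by -6.67 points, bioD by -1.38 and cre by -0.06. Of the 1521 genes called lower in carcinoma below, 883 had a mean rank of at least 80 in papilloma, as bioB had. Of these 883, 436 differed by at least as much as bioB and 447 by less. The part of this shift in the gene results was not tested. Control carcinoma replicate 2 stood apart from replicate 1 in carrying higher ranks of both stromal and differentiation markers, as given with those lists.

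**Figure D1:**
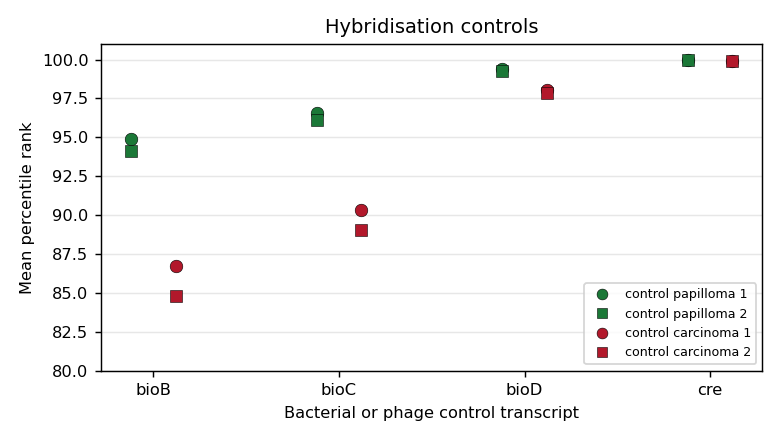
Mean percentile rank (y axis, from 80) of 4 spiked control transcripts (x axis) on each control array; circles are replicate 1 and squares replicate 2. bioB and bioC ranked lower on both carcinoma arrays than on both papilloma arrays, whereas cre stayed near 100 on all 4.

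Epithelial markers ranked near the top on all 4 arrays. The sorting antigen Epcam ranked at 98.2 and 98.8 in papilloma and at 99.4 and 98.8 in carcinoma. The basal keratins Krt5 and Krt14, the cadherin gene Cdh1 and Trp63, which encodes the master transcription factor of stratified epithelium, ranked at 91.0 or above on every array and were not called in either direction. The control probe sets of Pcx differed in their 3′ minus 5′ rank, at 31.7 and 13.9 points in papilloma and at -5.25 and -4.30 in carcinoma. Those of Tfrc gave -1.54 and 1.99 in papilloma and -6.73 and -8.44 in carcinoma. A 3′ to 5′ difference bears on RNA integrity and amplification, and its part in the results was not tested.

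Of 29 suprabasal and cornified envelope genes kept, 11 were called lower by limma (37.9%) and 1 higher (3.45%) in control carcinoma. Of 5 simple-epithelium keratin genes, 4 were called higher (80%) and 0 lower. Over all genes kept, 13.6% were called lower and 13.0% higher. The suprabasal keratin gene Krt10 went from a rank of 99.6 to 68.5, while the desmosomal cadherin gene Dsc1 went from 84.8, and the metallothionein gene Mt4 from 91.4, to below background. In the other direction the keratin gene Krt8 went from 56.2 to 93.4, and Krt19 from below background to 80.4. Also from below background, the claudin gene Cldn7 went to 88.5, Psca, which encodes a membrane-anchored surface antigen, to 90.3 and the platelet chemokine gene Ppbp to 95.9. For each of these genes the arrays of the tumour types did not overlap, which held for 71.5% of all genes kept.

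Of 11194 genes that ranked at 50 or above on at least 2 of the 4 arrays, 2972 passed limma at an adjusted p under 0.05, which is 26.5%. Of these, 1451 (13.0%) ranked higher and 1521 (13.6%) lower in carcinoma. A gene could enter through a single tumour type, where it ranked high, so every share of kept genes includes genes that passed in that way. Many of the differences were small: the median size was 12.4 points among called genes and 4.89 over all genes, and 560 called genes differed by less than 5 points. The median size of the difference between replicates was 2.19 points in papilloma and 2.04 in carcinoma. A stricter description, a gap of at least 20 points between every carcinoma and every papilloma array, held for 512 genes (4.57%), 215 (1.92%) higher and 297 (2.65%) lower. Of these, 496 were also called.

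The number of called genes fell when any single array was left out. Each such fit had 1 residual degree of freedom, against 2 with all 4 arrays. The part of that loss in the lower counts was not tested. Without control papilloma replicate 2 no gene passed: the lowest limma adjusted p was 0.0508, although 4029 genes had an unadjusted p under 0.05, against 4918 with all 4 arrays. Without control papilloma replicate 1 the count was 1207, without control carcinoma replicate 1 it was 1232, and without control carcinoma replicate 2 it was 1679. With 2 arrays against 2, an exact permutation test cannot go below a two-sided p of 0.333.

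**Figure D2:**
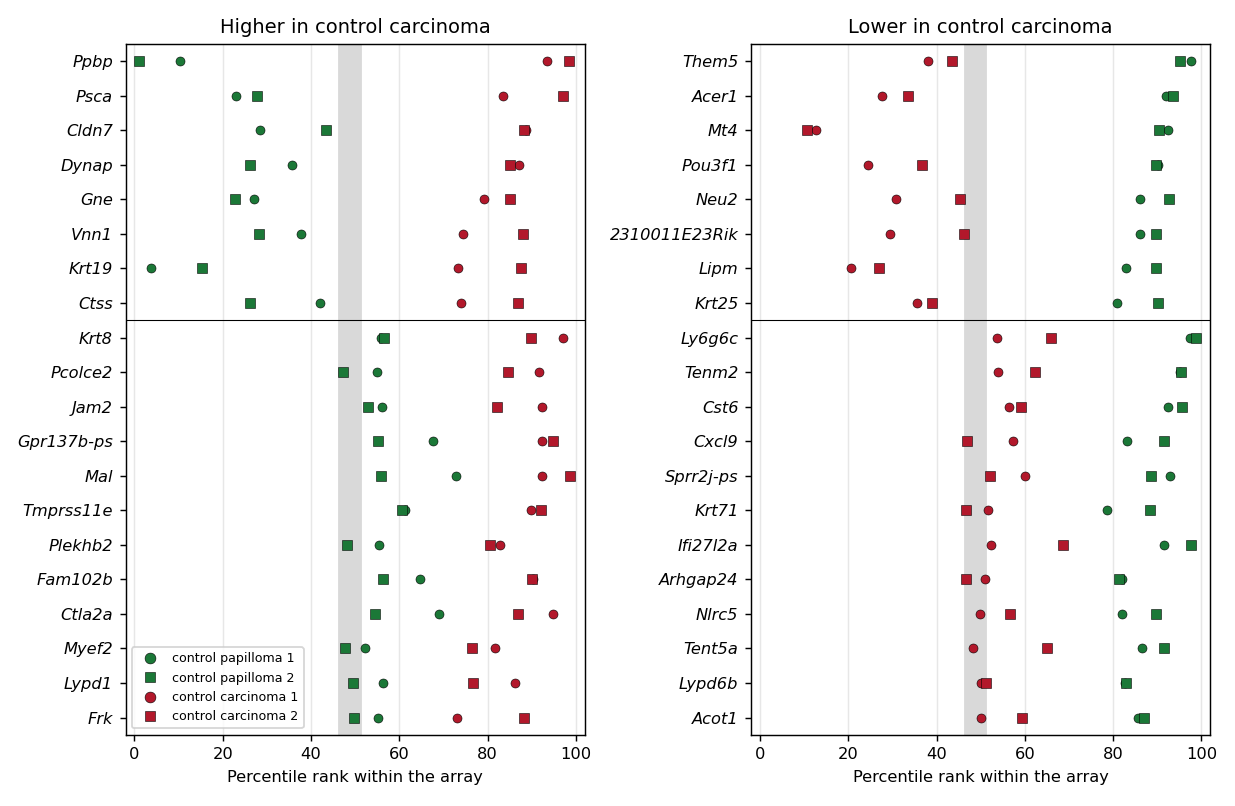
Percentile rank (x axis) on each control array of the 20 genes named as higher (left) and the 20 named as lower (right) in control carcinoma; green is papilloma, red is carcinoma, circles are replicate 1 and squares replicate 2. Above the line are genes at or below array background in one tumour type, below it genes above background on all 4 arrays, and the grey band spans the background ranks of the 4 arrays; in no row do the colours overlap.

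Among the genes of the spinous and granular layers, Krt10, the partner of keratin 1, ranked at 99.7 and 99.6 in papilloma and at 66.4 and 70.7 in carcinoma (-31.1 points, SE 1.98, limma adjusted p = 0.0159). Krt1 ranked at 99.4 on both papilloma arrays, but at 30.1 and 68.0 in carcinoma, where replicate 1 was below background and the arrays differed widely (-50.3, SE 12.7, limma adjusted p = 0.0483). Its call ended without either papilloma array, with limma adjusted p-values of 0.137 and 0.143, without the filter on low ranks (0.0658) and without a trend in the variance (0.113). Flg, the gene of filaggrin, which bundles keratin in the granular layer, ranked at 63.4 and 78.1 in papilloma and at 0.923 and 5.17 in carcinoma, at least 23.4 points lower. Casp14, the caspase that processes filaggrin, ranked at 93.2 and 94.4 against 15.4 (below background) and 63.2 and was not called (limma adjusted p = 0.0656).

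Of 29 suprabasal and cornified envelope genes kept, 11 ranked lower by limma's threshold (37.9%, against 13.6% of all genes) and 1 higher (3.45%, against 13.0%), with a median of -16.2 points against 0.13 over all genes. Besides Krt1, Krt10 and Flg, the lower ones included the lipid transporter gene Abca12, whose product loads lamellar granules (58.5 and 75.1 against 11.9 and 18.4), and the repetin gene Rptn (65.5 and 77.2 against 20.4 and 38.7). Both were below background on both carcinoma arrays, at least 19.5 points lower for Abca12 and 24.0 for Rptn. Like Flg, they passed the filter on low ranks through the papilloma arrays alone. Without that filter the list median was -13.5. Rptn had 3 probe sets, and the other two did not share the negative sign. The kallikrein protease gene Klk7, which acts in shedding of the outer layer, went from 94.6 and 98.6 to 75.5 and 76.1, while Klk8 was the 1 higher gene (92.7 and 95.3 against 98.6 on both arrays). The median of this list was -24.8 without control carcinoma replicate 2 and -9.20 without control carcinoma replicate 1.

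Several genes with known roles in the epidermis were among the named genes, which were chosen for the size of their difference. Acer1, an alkaline ceramidase gene of the epidermis, ranked at 92.1 and 93.6 in papilloma and at 27.7 and 33.5 in carcinoma, at least 45.5 points lower. Lipm, an epidermal lipase gene, ranked at 83.0 and 89.7 in papilloma against 20.6 and 27.0 in carcinoma, at least 39.0 points lower. The thioesterase gene Them5 ranked at 97.5 and 95.1 against 38.2 and 43.5, at least 49.0 points lower. Cst6, which encodes the cysteine protease inhibitor cystatin M/E, ranked at 92.5 and 95.6 against 56.4 and 59.2. Pou3f1, a POU transcription factor gene of epidermal differentiation, ranked at 90.1 and 89.6 against 24.5 and 36.8, at least 42.6 points lower. In each of these 5 genes both papilloma arrays lay more than 20 points above both carcinoma arrays. Mt4, a metallothionein gene of stratified squamous epithelium that stands in the xenobiotic defence list, ranked at 92.5 and 90.3 against 12.8 and 10.7, at least 44.1 points lower.

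The desmosomal cadherins of the suprabasal layers ranked lower too. Dsc1 ranked at 84.9 and 84.7 in papilloma and 31.0 and 36.6 in carcinoma, at least 37.5 points lower (limma adjusted p = 0.0159). Dsg1a, an epidermal desmoglein gene, ranked at 80.1 and 83.3 against 4.50 and 9.39, at least 34.3 points lower. It has near-identical copies that its probes may not tell apart, so this value is uncertain. Dsc3, the desmocollin gene of the deeper layers, differed by -9.88 points, and the plakoglobin gene Jup by -1.81.

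Of 16 hair follicle and sebaceous gland genes kept, 8 ranked lower by limma's threshold (50%, against 13.6% of all genes). None ranked higher (against 13.0%), and the median was -20.2 points. Without a filter on low ranks this median was -10.3. Krt25 and Krt71 encode keratins of the inner root sheath. Krt25 ranked at 80.9 and 90.2 in papilloma and at 35.5 and 39.0 in carcinoma, at least 38.2 points lower, and Krt71 at 78.6 and 88.4 against 51.6 and 46.7. Krt35, a keratin gene of the hair shaft, ranked at 61.0 and 82.5 against 19.7 and 19.4, at least 24.5 points lower. Hoxc13, a transcription factor gene that controls hair keratins, was at least 24.0 points lower. Krt25, Krt35 and Hoxc13 passed the filter on low ranks through the papilloma arrays alone. Lgr5, a stem cell marker of the lower follicle, ranked at 76.6 and 75.3 against 13.9 and 50.9 and was not called (limma adjusted p = 0.0639).

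Among mucosal and stress keratinocyte genes, Serpinb3a, a serine protease inhibitor gene, ranked at 79.7 and 81.0 in papilloma and 16.2 and 28.5 in carcinoma, at least 33.0 points lower. The chloride channel regulator gene Clca3a2 was at least 32.5 points lower. Over the 17 stress and hyperproliferation genes kept, 2 ranked lower (11.8%, against 13.6% of all genes) and 0 higher. The median was -5.34, and it was -0.91 without control carcinoma replicate 1 and -9.98 without control carcinoma replicate 2. Over the 14 mucosal genes kept, 5 ranked lower (35.7%) and 1 higher (7.14%, against 13.0% of all genes), and the higher gene was Psca. Called or not, 6 of the 14 had a positive and 8 a negative difference. Their median of -6.38 changed sign to 2.84 without control carcinoma replicate 1 and was -11.5 without control carcinoma replicate 2.

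**Figure D3:**
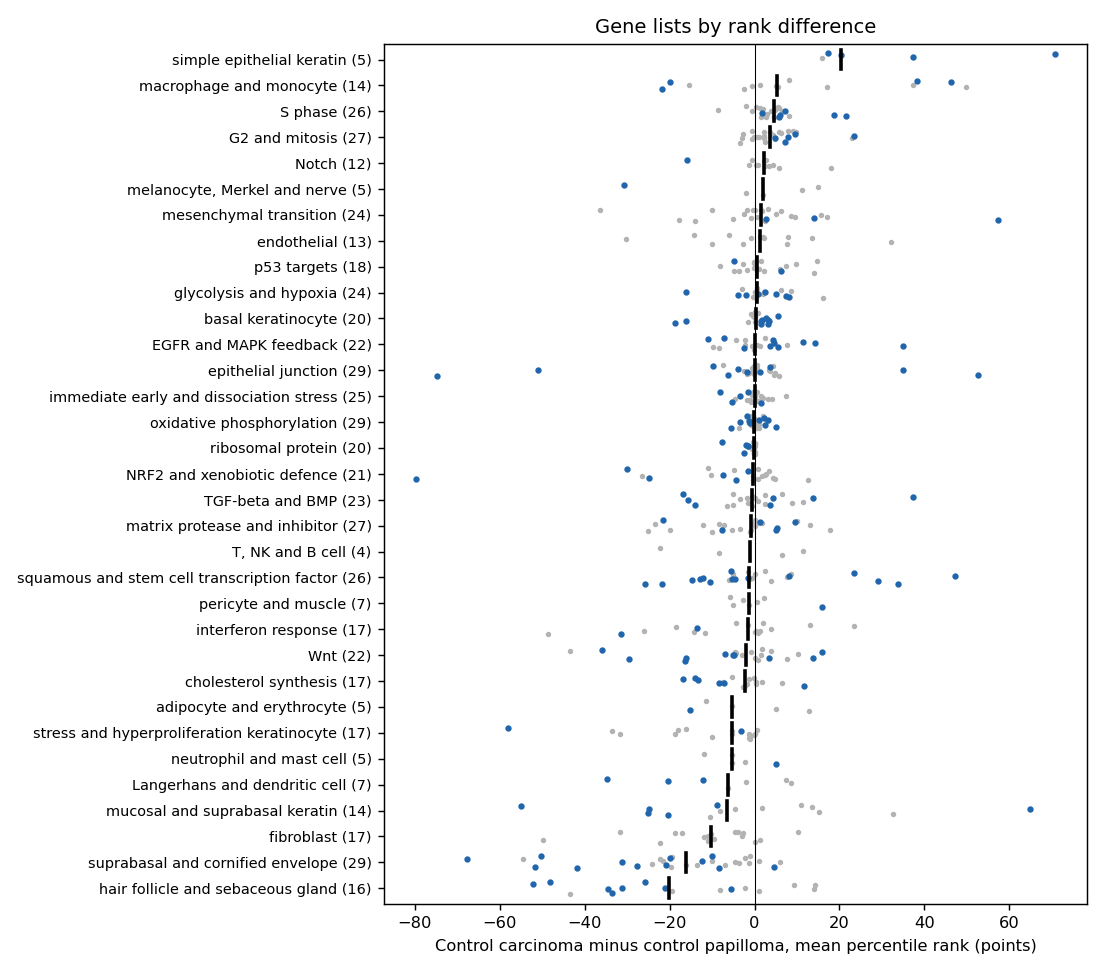
Difference in percentile rank, control carcinoma minus control papilloma (x axis, points), for every kept gene of 33 lists (y axis, number kept in brackets); blue points were called by limma, grey were not, and black bars are medians. The simple epithelial keratins have the highest median, at 20.3 points, and the hair follicle list the lowest, at -20.2.

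All 5 simple-epithelium keratin genes had a positive difference, and 4 were called higher by limma (80%, against 13.0% of all genes). Krt8 ranked at 55.9 and 56.6 in papilloma and at 97.0 and 89.9 in carcinoma (37.2 points, SE 3.14, limma adjusted p = 0.0159). Its 2 probe sets gave 37.2 and 38.5 points. Krt18, which encodes its filament partner, ranked at 75.7 and 74.6 against 98.4 and 92.5 (20.3 points, SE 2.35, limma adjusted p = 0.0168). Krt19 was below background on both papilloma arrays, at 3.78 and 15.4, and above it on both carcinoma arrays, at 73.3 and 87.6, at least 31.5 points higher. It passed the filter on low ranks through the carcinoma arrays alone. Krt7 ranked at 58.7 and 60.7 against 71.3 and 82.4, and Krt20 was not called (limma adjusted p = 0.454). The median of the 5 was 20.3 points, and 36.8 without control papilloma replicate 1.

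Over the 29 epithelial junction genes kept, 4 ranked higher (13.8%, against 13.0% of all genes) and 6 lower (20.7%, against 13.6%). Their median was 0.02. Of the claudins, Cldn7 ranked at 28.4 and 43.3 in papilloma, below background, and at 88.7 and 88.4 in carcinoma, at least 39.5 points higher. Cldn3, a second claudin gene of tight junctions, ranked at 56.6 and 41.8 against 87.2 and 81.0, with papilloma replicate 2 below background. Psca, the 1 higher gene of the mucosal list, ranked at 23.0 and 27.8 against 83.5 and 97.1, at least 41.3 points higher. Mal, a gene of apical membrane traffic, differed by 31.2 points, and the transmembrane protease gene Tmprss11e by 30.1.

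Ppbp, which encodes the platelet chemokine CXCL7, had the highest mean carcinoma rank among called genes at background in papilloma. It ranked at 10.4 and 1.06 in papilloma and at 93.4 and 98.4 in carcinoma, at least 46.9 points higher. Of the other platelet genes, Pf4 ranked at 35.3 and 55.0 against 40.8 and 63.0 and was not called (limma adjusted p = 0.648). Gp9 was not called either (limma adjusted p = 0.0611), and Gp1bb ranked at 56.9 and 54.5 against 25.3 and 33.1. These 3 were looked up after the value of Ppbp was seen, and the part of platelets in it was not tested.

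The other genes named for the size of their difference are in the plot of ranks by array. Of the 40, 16 had more than 1 probe set, and in 14 of these all probe sets had the same sign; the exceptions were Myef2 and Tenm2. Gne, which encodes the key enzyme of sialic acid synthesis, ranked at 27.1 and 22.8 in papilloma and 79.3 and 85.1 in carcinoma, at least 33.2 points higher. Vnn1, a pantetheinase gene, ranked at 37.8 and 28.3 against 74.4 and 88.1, at least 32.3 points higher. The Src-family kinase gene Frk differed by 28.2 points and the junctional adhesion gene Jam2 by 32.7. Among the lower ones, the sialidase gene Neu2 ranked at 86.1 and 92.6 against 30.9 and 45.3 (at least 42.0 points lower), and Ly6g6c, a gene of the Ly6 family, at 97.4 and 98.9 against 53.7 and 66.0. The limma adjusted p-values of the 40 lay between 0.0159 and 0.0317.

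The 250 bases before the annotated start are printed for Krt10, Krt8 and Ppbp, which stand for the epidermal keratins, the simple keratins and the genes at background in papilloma (RefSeq, GRCm38.p6). Each is given 5′ to 3′ on the strand of its gene, in lower case. Capitals mark a match on either strand to TGANTCA, a loose AP-1 pattern whose centre (N) may be any base. A match need not be an AP-1 site. Krt10 lies at chr11:99389365-99389614 on the reverse strand, Krt8 at chr15:102004343-102004592 on the reverse strand and Ppbp at chr5:90768268-90768517 on the forward strand.
Krt10: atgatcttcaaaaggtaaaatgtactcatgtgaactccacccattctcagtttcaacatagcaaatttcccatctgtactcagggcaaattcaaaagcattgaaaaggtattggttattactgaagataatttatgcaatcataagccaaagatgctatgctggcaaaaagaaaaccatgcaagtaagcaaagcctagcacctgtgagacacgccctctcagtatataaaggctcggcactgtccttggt
Krt8: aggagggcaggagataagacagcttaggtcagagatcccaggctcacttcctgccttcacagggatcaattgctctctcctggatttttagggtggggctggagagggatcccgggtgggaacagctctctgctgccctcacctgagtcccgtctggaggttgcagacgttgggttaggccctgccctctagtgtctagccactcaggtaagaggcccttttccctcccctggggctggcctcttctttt
Ppbp: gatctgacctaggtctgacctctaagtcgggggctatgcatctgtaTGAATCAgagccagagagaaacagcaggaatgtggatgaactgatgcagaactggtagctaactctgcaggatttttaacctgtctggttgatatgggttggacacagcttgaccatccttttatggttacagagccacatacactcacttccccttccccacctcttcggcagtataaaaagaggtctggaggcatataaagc
The Ppbp window held the 1 match, with A at its centre, at -204 from the start, and binding of AP-1 there was not tested. Matches to this loose pattern were found in 15 of 220 promoters (6.82%) of the genes apart by 20 points and lower. They were found in 10 of 165 (6.06%) of those higher, and in 425 of 9001 (4.72%) of all genes kept. Over all 27025 promoters the share was 6.87%. A direct repeat of the nuclear receptor half-site AGGTCA, spaced by 1 base, was found in 0 of the 220 and 0 of the 165, against 6 of the 9001.

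Genes of the basal layer stayed near the top of every array. Of 20 kept, 8 ranked higher (40%, against 13.0% of all genes) and 2 lower (10%, against 13.6%). Their median was 0.37 points (0.73 without control carcinoma replicate 2). The higher ones included the integrin and laminin genes that anchor basal cells: Itga6 ranked at 96.4 and 95.8 in papilloma and 98.8 and 98.7 in carcinoma, Itgb4 differed by 3.20 points and Lamb3 by 3.13. Krt15, a keratin gene of follicle stem cells and resting basal cells, ranked lower, at 89.0 and 91.2 against 72.3 and 70.5. Cd34, a surface marker of hair follicle stem cells, ranked at 77.8 and 69.0 against 81.1 and 76.5 (limma adjusted p = 0.331).

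Of 26 transcription factor genes of squamous and stem cells, 5 ranked higher (19.2%) and 10 lower (38.5%). The shares of all genes were 13.0% and 13.6%. The lower ones were led by Gata3, Tbx3 and Grhl3, a grainyhead factor gene needed for the barrier. Gata3 ranked at 80.1 and 81.2 against 63.6 and 46.0, and Tbx3 differed by -21.9 points, each with 1 carcinoma array below background. Grhl3 ranked at 95.8 and 96.2 against 82.9 and 79.9. Zfp750 and Ovol1, which promote differentiation, differed by -10.6 and -5.59 points. The higher ones included Pitx1, at 73.9 and 59.7 against 86.8 and 93.9, and Sox2, a stem cell factor gene, at 25.9 and 1.19 against 50.2 and 71.1. Sox2 was below background on both papilloma arrays, at least 11.7 points higher. Its call was marginal (limma adjusted p = 0.0499), rests on ranks below background and ended under most alternatives, with adjusted p-values up to 0.446.

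Nr2f2, the gene that the study deletes or overexpresses, was measured by 4 probe sets. The brightest in the controls ranked at 52.1 and 36.9 in papilloma and at 72.3 and 84.2 in carcinoma, with papilloma replicate 2 below background (33.8 points, SE 6.81, limma adjusted p = 0.0313). Its call ended without a trend in the variance (0.0753), with the replicate number as a block (0.0509) and without 3 of the 4 arrays in turn (0.051 to 0.0917). A second probe set ranked at 27.3 and 6.98 in papilloma (both below background) and at 81.1 and 83.5 in carcinoma. It ranked at 99.5 and 99.6 in GOF papilloma and at 44.3 and 48.2 in KO carcinoma, in the direction of the labels. The third was above background on control carcinoma replicate 2 alone, and the fourth was below background on all 4 control arrays, so neither gives a direction.

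**Figure D4:**
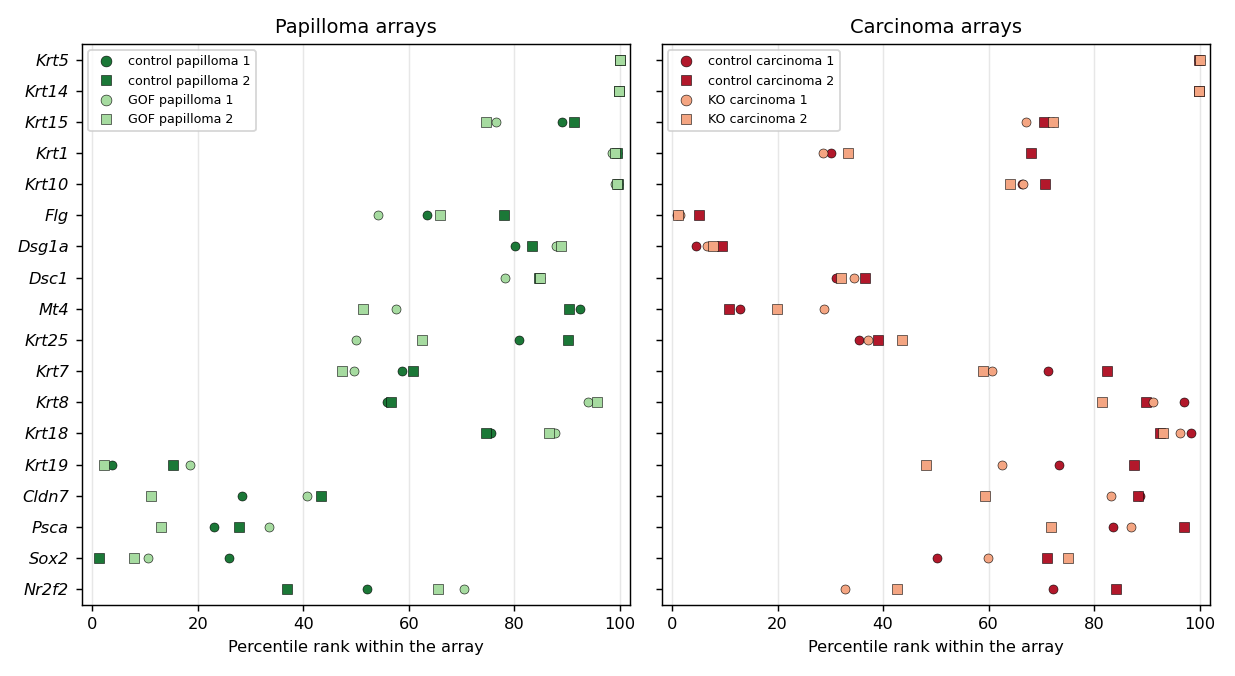
Percentile rank (x axis) of 18 epithelial genes (y axis) on the 4 papilloma arrays (left, control dark green and GOF light green) and the 4 carcinoma arrays (right, control dark red and KO light red); circles are replicate 1 and squares replicate 2. Krt10 lies above 99 on the 4 papilloma arrays and between 64.1 and 70.7 on the 4 carcinoma arrays, while Krt8 differs between the control and GOF papillomas.

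The GOF papilloma and KO carcinoma arrays share the batches of their controls, so they do not separate batch from tumour type, but they show which values hold on other arrays. Of the 215 genes higher by 20 points, 175 had both KO carcinoma arrays above both GOF papilloma arrays by any margin, and 11 the reverse. The gap of 20 points itself was kept by 76 of the 215. Of the 297 lower by 20 points, 276 had both KO carcinoma arrays below both GOF papilloma arrays by any margin, and 3 the reverse. Here 172 of the 297 kept the gap of 20 points. Over all 11194 genes, KO was above GOF in all pairs for 4462 and below for 4222. Krt10 ranked at 99.0 and 99.5 in GOF papilloma and at 66.5 and 64.1 in KO carcinoma, close to the respective controls. Krt8 did not follow the tumour type: it ranked at 93.9 and 95.6 in GOF papilloma, far above the control papillomas, and at 91.1 and 81.5 in KO carcinoma. In KO carcinoma Krt7 ranked at 60.6 and 58.9, near the control papillomas, and Krt19 at 62.6 and 48.1, below both control carcinomas. Krt18 stayed high there, at 96.25 and 92.97. Mt4 ranked at 57.6 and 51.3 in GOF papilloma, below the control papillomas, and Ctss, a cathepsin gene of myeloid cells, at 86.8 and 92.9 in GOF papilloma against 42.0 and 26.3 in control papilloma.

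Cell cycle genes leaned higher in carcinoma. Of 26 S phase genes kept, 6 ranked higher and 0 lower, with a median of 4.58 points. Of 27 genes of G2 and mitosis, 5 ranked higher and 0 lower, with a median of 3.74 (1.73 without control papilloma replicate 1). These shares, 23.1% and 18.5%, compare with the 13.0% of all genes that were called higher. They included Pold1, the catalytic subunit gene of a replicative polymerase (21.5 points, with 1 papilloma array below background), Kif23, a kinesin gene of cytokinesis (at least 15.7), and Mcm4, a helicase subunit gene of replication origins (70.3 and 69.9 against 88.1 and 89.4).

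Of 24 mesenchymal genes kept, 3 ranked higher (12.5%, against 13.0% of all genes) and 0 lower. Foxc2, a forkhead factor gene, ranked at 5.57 and 22.5 against 75.1 and 67.6, at least 22.4 points higher. The others were Nt5e (13.9 points) and the tenascin gene Tnc (2.77). The 3 probe sets of Nt5e ranged from -9.70 to 25.85 points. The intermediate filament gene Vim ranked at 97.2 and 90.0 in papilloma and 96.6 and 97.0 in carcinoma and was not called (limma adjusted p = 0.358). Of 27 protease and inhibitor genes, 4 ranked higher (14.8%) and 2 lower (7.41%). Stromelysin gene Mmp3 was lower, at 91.8 and 94.6 against 65.5 and 77.8, as was the collagenase gene Mmp13 (-7.77 points), while Mmp9, a gelatinase gene, was higher (5.02 points).

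In the Wnt list, 3 of 22 ranked higher (13.6%, against 13.0% of all genes) and 7 lower (31.8%, against 13.6% of all genes). Of 3 feedback genes induced by Wnt signals, Rnf43 was at least 10.3 points lower and Apcdd1 and Axin2 differed by -29.5 and -16.2 points, while the ligand gene Wnt7b differed by 16.0. In the TGF-beta and BMP list, 4 of 23 ranked higher (17.4%) and 3 lower (13.0%), near the shares of all genes. The ligand gene Tgfb3 ranked at 58.3 and 46.6 in papilloma and 91.9 and 87.6 in carcinoma, with papilloma replicate 2 just below background. The receptor gene Tgfbr1 differed by 13.8 points, while the ligand genes Tgfb2 and Bmp7 differed by -14.1 and -16.8. Bmp7 had 3 probe sets, of which 2 were lower in carcinoma. In the EGFR and MAPK list, 7 of 22 ranked higher (31.8%) and 3 lower (13.6%). Etv4 and Etv5 are ETS factor genes downstream of MAPK. Etv4 was at least 23.0 points higher, Etv5 differed by 14.3 points and the phosphatase gene Dusp4 by 11.3, while the ligand gene Epgn differed by -11.0. In the Notch list, 1 of 12 was called (8.33%, against 26.5% of all genes), Notch3 (-15.8 points).

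Over all genes kept, 13.0% were called higher and 13.6% lower. In oxidative phosphorylation, 5 of 29 ranked higher and 5 lower (17.2% each), and in glycolysis 5 of 24 higher (20.8%) and 3 lower (12.5%). In cholesterol synthesis, 1 of 17 ranked higher (5.88%) and 5 lower (29.4%). The lower ones included Lss (-16.8 points) and Fdft1 (-13.9), which encode enzymes of the sterol branch. In the xenobiotic defence list, 6 of 21 ranked lower (28.6%) and 0 higher, including the glutathione transferase gene Gstm1 (-30.1 points) and Mt4. Gstm1 had 4 probe sets, of which 3 were lower in carcinoma. Of 20 ribosomal protein genes, 5 were lower (25%) and 0 higher, with a median of -0.12. Of 25 immediate early genes, which respond to tissue dissociation, 1 was higher (4%) and 4 lower (16%), with a median of 0. Of 18 p53 target genes, 1 was higher and 1 lower (5.56% each).

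Of 17 interferon response genes kept, 2 were lower (11.8%, against 13.6% of all genes) and 0 higher, the chemokine gene Cxcl10 (89.1 and 94.1 against 56.9 and 63.2) and the immunoproteasome gene Psmb9 (-13.5 points). Cxcl9, a related chemokine gene, was among the 12 largest losses of rank above background and differed by -35.1 points.

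Markers of other cell types differed between the carcinoma arrays. Of 16 lymphocyte markers, 4 and 5 were above background in papilloma and 5 and 7 in carcinoma, and of 20 macrophage markers, 8 and 10 against 14 and 18. Of 22 fibroblast markers, 17 and 16 were above background in papilloma and 15 and 17 in carcinoma. The mean rank of the 20 macrophage markers was 47.3 and 42.8 in papilloma and 48.3 and 67.0 in carcinoma. That of the 22 fibroblast markers was 76.3 and 69.4 against 56.0 and 72.4, and that of the 20 endothelial markers 49.7 and 45.4 against 44.8 and 57.0. Control carcinoma replicate 2 was thus above replicate 1 in all 3. It was also above it for the 35 suprabasal genes on the array, with means of 56.5 and 68.2 against 75.9 and 82.0 in papilloma. In bulk RNA, fewer cells of a type and less RNA per cell cannot be told apart, and the part of these cells in the results was not tested.

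Of 14 macrophage genes kept, 2 ranked higher and 2 lower (14.3% each, near the 13.0% and 13.6% of all genes). Ctss ranked at 42.0 and 26.3 in papilloma and at 74.0 and 86.8 in carcinoma, at least 31.4 points higher, and the complement gene C1qb was at least 10.7 points higher, while Apoe differed by -21.8. Of 7 Langerhans and dendritic cell genes, 3 were lower (42.9%) and 0 higher. Langerin gene Cd207, the defining marker of Langerhans cells, ranked at 58.9 and 59.4 against 22.0 and 27.0, at least 11.8 points lower. Limma called no gene among 17 fibroblast, 13 endothelial and 4 lymphocyte genes kept, against 26.5% of all genes. The fibroblast median was -10.2 points, and it was -2.32 without control carcinoma replicate 1 and -18.2 without control carcinoma replicate 2.

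**Figure D5:**
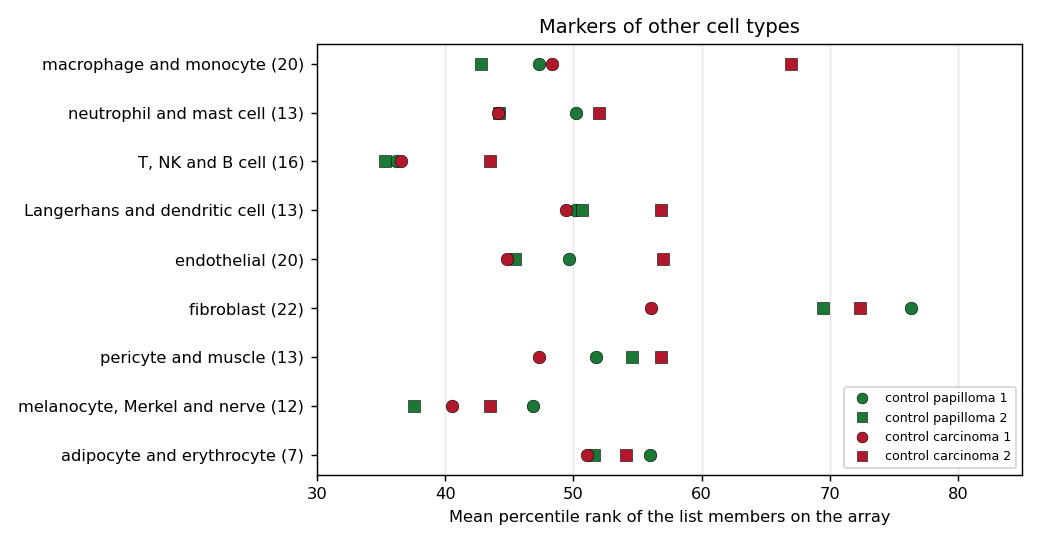
Mean percentile rank (x axis) on each control array of 9 marker lists for cells other than keratinocytes (y axis, number of markers on the array in brackets); green is papilloma, red is carcinoma, circles are replicate 1 and squares replicate 2. Control carcinoma replicate 2 lies above replicate 1 in every list.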

How the data were processed

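RNA of Epcam-sorted mouse skin tumour cells was hybridised to Affymetrix mouse PM strip arrays. The authors deposited log2 values made with RMA in the affy package, per the labels and the submitters' processing notes; versions are not given in the sources used here. Of 45141 probe sets, 104 were array controls and 45037 were ranked within each array. Of these, 28898 had 1 gene symbol, 551 several and 15588 none, and 28689 were matched by Entrez identifier to current symbols. A gene (17097 in all) was its single-symbol probe set of highest mean rank over the 4 control arrays. Genes at rank 50 or above on at least 2 arrays entered the test, in limma 3.58.1 under R 4.3.3 (lmFit, eBayes with a trend, Benjamini-Hochberg threshold 0.05, 2 residual degrees of freedom). The script was tested on simulated data. The number of arrays limits the precision, as do ranks near or below background. More arrays of the same design would not separate batch from tumour type.

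Named genes were, among called genes, the 12 largest differences each way above background on all 4 arrays, and the 8 each way brightest in one tumour type with the other at background. Up to 4 called members of each list with the largest differences, others that describe a list, 13 fixed genes and Cdh1 were added. The 33 lists hold 761 genes, of which 675 had a probe set and 572 were kept. The members, lists and tests were chosen with earlier results of these data known. Replicate numbers did not pair the samples: the deviations of same-numbered arrays correlated at 0.00666. Alternatives were other filters, probe set rules, rank scales, models and each array left out.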

Additional observations from a re-analysis of the deposited data

How the results depend on the processing

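The number of genes called was 2972 (1451 higher, 1521 lower). Without a variance trend it was 1875, with 814 higher, and a fit on all 8 arrays called 2201 higher. With the replicate number as a block it was 2299, although the numbers do not pair the arrays. Leaving out 1 array at a time gave 0 to 1679 calls, 0 to 823 higher and 0 to 1138 lower, and kept 0 to 37 of the 40 named genes. The 0 came without control papilloma replicate 2, where the lowest limma adjusted p was 0.0508 and 4029 genes had an unadjusted p under 0.05. The 512 genes apart by 20 points (215 higher, 297 lower) became 866 (390 and 476) without a filter, 243 (86 and 157) with a filter at rank 65, 1744 (804 and 940) with a gap of 10 points and 183 (79 and 104) with a gap of 30. Leaving out 1 array gave 653 to 876, with 282 to 495 higher and 365 to 529 lower. Fewer array pairs must then meet the gap, so these counts could not fall and do not test its stability. The list medians kept their sign in 24 to 32 of 33 lists. Among list medians that passed from one sign to the other beyond the spread between arrays, the Langerhans and dendritic cell list gave 0.75 without a filter, and the squamous and stem cell transcription factor list 0.95 with the mean of probe sets. Of single-gene values under the alternatives, 602 kept their status as called or not called, 80 lost a call and 1 gained one. The 602 include values of fixed genes, such as Epcam and Krt5, that were not called in the main fit. The melanocyte, Merkel and nerve list had no gene left with a filter at rank 65. The cause of these changes was not tested. Ranks near or below background limit every small difference there.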
